A study of Mus musculus with 6 samples.

Results

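The genes described here encode the presynaptic machinery that docks, primes, fuses and retrieves synaptic vesicles. They are 42 genes named by hand for their function, of the 55341 gene symbols that each count table lists, and each was found in the tables by its symbol. RNA was sequenced from cultured mouse cerebellar granule neurons (CGNs), in 3 libraries from cultures given the vehicle DMSO and 3 from cultures given GSK-126, a small molecule that inhibits EZH2, the enzyme that trimethylates lysine 27 of histone H3 (H3K27me3). All cultures came from granule neuron precursors of CD1-IGS pups aged P6 to P8, were purified on a Percoll gradient and received the antimitotic drug AraC, so both groups share these steps. Drug or vehicle was added once, at day in vitro 3 (DIV3), and by the study's methods RNA was taken at DIV5, while the labels give only DIV3 and cerebellum. Each replicate is a culture from pooled litters, the dose used at DIV3 is not given in the sources used here, and no H3K27me3 was measured in these libraries.

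A synaptic vesicle is filled with transmitter, tethered at the active zone by large scaffold proteins, primed by Munc13 and RIM proteins, and fused with the plasma membrane when calcium binds a synaptotagmin on the vesicle. Fusion is driven by the SNARE complex of syntaxin, SNAP25 and synaptobrevin, which complexin clamps and NSF takes apart, and the vesicle membrane is then pulled back by endocytosis. Granule neurons send the parallel fibres of the cerebellum, whose synapses on Purkinje cells are formed while these neurons mature. The comparison asks how the transcripts of this machinery differ when EZH2 is inhibited in neurons that have already left the cell cycle.

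The libraries held between 7407189 and 13092763 counts on genes, and the tested presynaptic genes between 56 and 13276 counts per library. Levels are given as CPM, the counts of a gene over the total of its library on a fixed scale, with TMM factors that correct for differences in RNA composition between libraries. Libraries with the same replicate number deviated together, and replicate 2 stood apart in both groups. It had the highest CPM of its group in both groups for 36 of the 40 tested presynaptic genes, against 26.6% of all tested genes, and its summed astroglial markers were the lowest, at 2292 CPM (DMSO) and 2172 CPM (GSK-126), against 3900 to 7456 CPM in the other libraries. Fold changes therefore come from a fit that compares each GSK-126 library with the DMSO library of the same number (edgeR's quasi-likelihood test with the replicate number as a block, 3 pairs). A call is a Benjamini-Hochberg adjusted p under 0.05 over all 16729 tested genes. All 12 pan-neuronal markers and all 8 granule neuron markers were detected above the filter. Of 6 precursor markers, Atoh1 (0 to 0.754 CPM) and Gli1 (0.115 to 1.12 CPM) were too low to test. The other precursor markers passed the filter. Mki67 lay at 74.4 to 136 CPM, Top2a at 78.2 to 125 CPM, Ccnb1 at 16.9 to 35.9 CPM and Ccnd2 at 187 to 455 CPM.

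With GSK-126, each of the 10 roles by which the presynaptic genes were grouped held at least 2 genes that fell. Not all of these calls were kept whichever pair was left out, and among the calcium sensors none was. Of the 42 genes, 40 passed the filter on low counts, and 27 of these fell, 1 rose and 12 did not pass the threshold. Among all tested genes, 5.09% were called lower and 3.35% higher, so that 60.3% of all calls were lower, against 49.0% under upper-quartile scaling. The median log2 fold change was -0.36 over the 40 genes (quartiles -0.51 and -0.23) and -0.0056 over all tested genes. Within the pairs, the medians were -0.36, -0.36 and -0.41, and 38, 34 and 36 of the 40 genes were lower with GSK-126. In all, 33 of 40 were lower in all 3 pairs, against 22.8% of all tested genes. Their summed level was 8779, 14373 and 9725 CPM with DMSO against 6577, 10781 and 7424 CPM with GSK-126, that is 0.749, 0.750 and 0.763 of the DMSO library of the same number. The falls that passed the threshold ran from 15.3% to 71.6%. Most were small beside the difference between replicates within a group. The groups failed to overlap for 5 genes, Sv2c, Rims3, Unc13c, Syt2 and Amph, all lower with GSK-126, against 4.72% of all tested genes. Without replicate 2 in both groups, 26 genes fell and 1 rose.

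The calls rest on the pairing. Without the replicate block edgeR called 0 of the 40 genes and 0 of all genes, with 8 and 665 at an unadjusted p under 0.05, and the smallest adjusted p of a presynaptic gene was 0.953. DESeq2's Wald test without the block called Sv2c as the 1 presynaptic gene that was lower and 21 genes in all, and with the block it called the same 27 genes lower as edgeR did. In edgeR's fit with the block, 18 of the 27 kept the call whichever pair was left out, the 7 falls over 1.5-fold among them. The other 9, Syt1, Syt2, Syt7, Syt11, Vamp2, Cplx1, Cadps, Syn1 and Sv2a, lost it without at least 1 pair. They include every calcium sensor called lower. Snap25, Cplx2, Cadps2 and Syn2 are the only kept falls of the SNARE, complexin, dense core vesicle priming and synapsin roles.

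**Figure D1:**
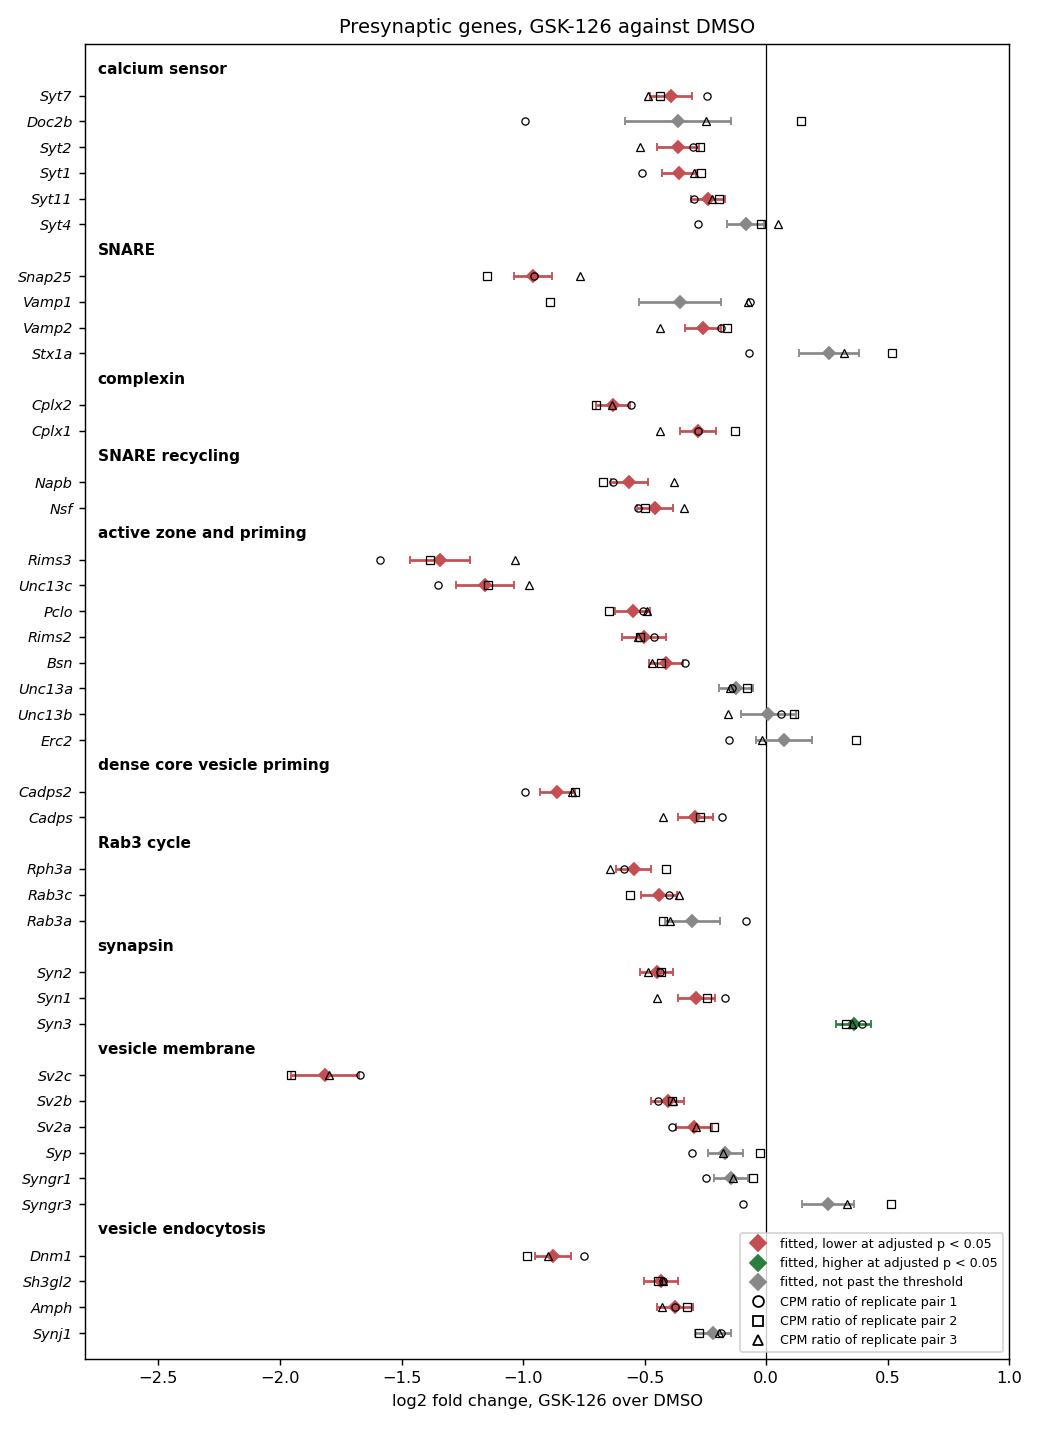
Log2 fold change (horizontal axis, GSK-126 over DMSO) of the 40 tested presynaptic genes, grouped by role. Diamonds and bars are the fitted value and its standard error, coloured by the call, and open symbols are the CPM ratios of the 3 replicate pairs. Sv2c, Rims3 and Unc13c lie farthest to the left and Syn3 is the one gene called higher.

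Among the genes for integral proteins of the vesicle membrane, those of the SV2 glycoproteins fell and those of the tetraspan proteins did not pass the threshold. Sv2c (ENSMUSG00000051111.16, chromosome 13, 95954594 to 96132577, as all coordinates of genes in GRCm38) encodes an SV2 protein of restricted distribution in the brain. It had 30.9, 63.1 and 26.0 CPM with DMSO against 9.70, 16.3 and 7.48 CPM with GSK-126. Every GSK-126 library was below every DMSO library. The log2 fold change of Sv2c was -1.81 (standard error 0.14, edgeR adjusted p = 9.35e-08), a level 3.52-fold lower and the largest change among the presynaptic genes. Sv2b, a second SV2 form, had 346, 498 and 342 CPM with DMSO against 254, 381 and 262 CPM with GSK-126. The groups of Sv2b overlapped because replicate 2 was high in both, and its log2 fold change was -0.41 (standard error 0.07, edgeR adjusted p = 0.000666). Sv2a, the widely expressed form, fell by less, with -0.30 (standard error 0.07, edgeR adjusted p = 0.0133). Synaptophysin (Syp), a tetraspan protein that pairs with synaptobrevin, changed by -0.17 (adjusted p = 0.17), synaptogyrin 1 (Syngr1) by -0.15 (adjusted p = 0.236) and synaptogyrin 3 (Syngr3) by 0.25 (adjusted p = 0.169) in edgeR's test, none of them past the threshold. Syngr3 had 57.4, 64.6 and 49.2 CPM with DMSO against 53.7, 92.3 and 62.0 CPM with GSK-126, higher in pairs 2 and 3 and lower in pair 1.

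Synapsins coat vesicles and hold them in the reserve pool. Syn2 fell by 0.45 on the log2 scale (standard error 0.07, edgeR adjusted p = 0.00022) and Syn1 by 0.29 (standard error 0.08, edgeR adjusted p = 0.022). Syn3 (ENSMUSG00000059602.14, chromosome 10, 86055125 to 86498896) was the one presynaptic gene called higher. It had 156, 137 and 186 CPM with DMSO against 204, 172 and 238 CPM with GSK-126, with a log2 fold change of 0.36 (standard error 0.07, edgeR adjusted p = 0.00312). Of the 12282 bp of Syn3 exon, 1733 bp are shared with Timp3, an inhibitor of metalloproteases that lies within the Syn3 locus on the opposite strand. Timp3 rose by 0.41 (standard error 0.07, edgeR adjusted p = 0.000797), and the ratio of Syn3 to Timp3 CPM was 0.538, 0.665 and 0.532 with DMSO and 0.513, 0.672 and 0.501 with GSK-126. The strand setting of the counting is not given in the sources used here. How reads on the shared bases were assigned is therefore not known, and the rise of Syn3 is uncertain.

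**Figure D2:**
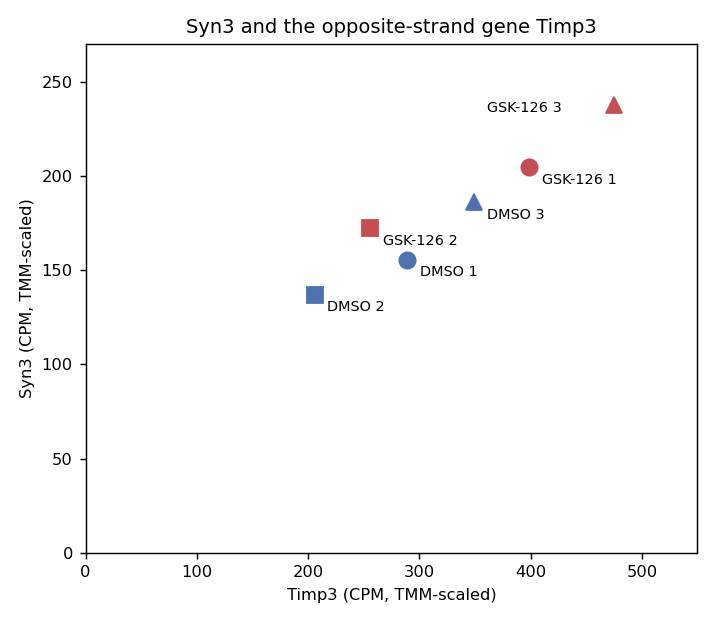
CPM of Syn3 (vertical axis) against CPM of Timp3 (horizontal axis) in the 6 libraries, DMSO in blue and GSK-126 in red, with the shape marking the replicate number. Both genes were higher with GSK-126 in each pair, DMSO replicate 2 is the lowest library for both and GSK-126 replicate 3 the highest.

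The genes of the active zone scaffold and of the priming factors held the next largest falls. Rims3 (ENSMUSG00000032890.17, chromosome 4, 120854816 to 120896579) encodes RIM3, a short RIM isoform that lacks most of the domains of the long forms. Rims3 had 45.3, 79.7 and 41.0 CPM with DMSO against 15.1, 30.6 and 20.0 CPM with GSK-126, with every GSK-126 library below every DMSO library and a log2 fold change of -1.34 (standard error 0.12, edgeR adjusted p = 7.09e-07). Unc13c (ENSMUSG00000062151.13, chromosome 9, 73479422 to 73968966) encodes Munc13-3, the priming protein typical of cerebellar granule neurons. Unc13c had 36.7, 66.8 and 42.8 CPM with DMSO against 14.4, 30.2 and 21.8 CPM with GSK-126, again with no overlap, and a log2 fold change of -1.16 (standard error 0.12, edgeR adjusted p = 3.01e-06). The other Munc13 genes did not pass the threshold. Unc13a (Munc13-1), the main priming factor of most synapses, had 209.6, 332 and 232 CPM with DMSO against 189.9, 314 and 209 CPM with GSK-126, a log2 fold change of -0.12 (standard error 0.07, edgeR adjusted p = 0.328). For Unc13b (Munc13-2) the levels were 37.7, 37.8 and 36.2 CPM with DMSO against 39.3, 40.8 and 32.5 CPM with GSK-126, and the log2 fold change was 0.01 (standard error 0.11, edgeR adjusted p = 0.977).

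The transcripts of the giant scaffold proteins fell together. Pclo, which encodes piccolo, changed by -0.55 (standard error 0.07, edgeR adjusted p = 4.89e-05) and Bsn, which encodes bassoon, by -0.41 (standard error 0.07, edgeR adjusted p = 0.000752), both on the log2 scale and both lower in all 3 pairs. Rims2, which encodes the long RIM2 forms that link vesicles to calcium channels, had a log2 fold change of -0.50 (standard error 0.09, edgeR adjusted p = 0.00112). Erc2, an ELKS scaffold gene, did not pass the threshold at 0.07 (adjusted p = 0.776) in edgeR's test. Rims1 was listed at 0 in all 6 libraries and was not tested, and the files do not show why it is at 0.

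The 3 genes with the largest falls are shown with 250 bases of RefSeq promoter sequence before the transcription start (GRCm38.p6, 5′ to 3′), beside Unc13b, whose level moved least, so that their base composition can be compared. Capitals mark matches, on either strand, to 4 short motifs: CAGCAGG (a ZIC core), TGACGTCA (a CRE), CAGCACC (the left arm of the REST element) and CAGATG (an E-box bound by NEUROD factors), and a further motif, GGGCGG (a GC box), was counted and not capitalised. The windows are chr13:96132578-96132827, minus strand for Sv2c, chr4:120854549-120854798, plus strand for Rims3, chr9:73969038-73969287, minus strand for Unc13c and chr4:43058703-43058952, plus strand for Unc13b.
Sv2c: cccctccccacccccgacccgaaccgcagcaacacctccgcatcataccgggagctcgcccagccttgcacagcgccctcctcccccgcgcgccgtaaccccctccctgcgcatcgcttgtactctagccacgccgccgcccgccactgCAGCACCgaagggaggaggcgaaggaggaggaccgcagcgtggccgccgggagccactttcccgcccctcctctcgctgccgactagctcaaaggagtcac
Rims3: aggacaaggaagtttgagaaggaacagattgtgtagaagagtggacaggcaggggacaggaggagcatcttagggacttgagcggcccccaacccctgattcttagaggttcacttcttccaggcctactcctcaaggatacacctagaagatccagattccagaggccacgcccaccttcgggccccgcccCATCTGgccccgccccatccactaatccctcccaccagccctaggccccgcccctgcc
Unc13c: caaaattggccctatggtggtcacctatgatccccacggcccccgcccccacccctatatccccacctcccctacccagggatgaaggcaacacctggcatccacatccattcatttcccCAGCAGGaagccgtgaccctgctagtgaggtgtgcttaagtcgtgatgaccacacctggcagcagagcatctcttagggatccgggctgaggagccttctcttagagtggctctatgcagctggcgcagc
Unc13b: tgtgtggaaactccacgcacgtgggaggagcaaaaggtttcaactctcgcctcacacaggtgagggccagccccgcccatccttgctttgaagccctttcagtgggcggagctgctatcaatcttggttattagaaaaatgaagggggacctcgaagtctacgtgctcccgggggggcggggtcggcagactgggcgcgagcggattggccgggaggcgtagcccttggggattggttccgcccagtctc
The Sv2c window holds CAGCACC, the Rims3 window holds CATCTG, the reverse complement of CAGATG, and the Unc13c window holds CAGCAGG, while the Unc13b window holds none of the 4. Windows were found for 34 of the 42 genes (44 windows) and not for Syt7, Vamp2, Syngr3, Syn3, Rims2, Syt4, Snap25 and Doc2b. Over these 44 windows, CAGCAGG was present in 9.09% against 8.44% of all 32851 RefSeq windows, CAGCACC in 6.82% against 5.73%, TGACGTCA in 4.55% against 1.55%, CAGATG in 6.82% against 14.4% and GGGCGG in 54.5% against 32.7%. The median GC content of the windows was 61.0% against 52.4% over all windows, and the median ratio of observed to expected CpG 0.594 against 0.373. In the windows shown, this CpG ratio was 0.912 for Sv2c, 0.278 for Rims3, 0.287 for Unc13c and 0.705 for Unc13b. Its median was 0.554 over the windows of genes called lower and 0.705 over those of genes not called. The windows of the genes called lower did not hold more GC boxes than those of the genes not called, at 48.4% of 31 windows and 72.7% of 11 windows. These are descriptions of letters in a window and not binding sites.

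**Figure D3:**
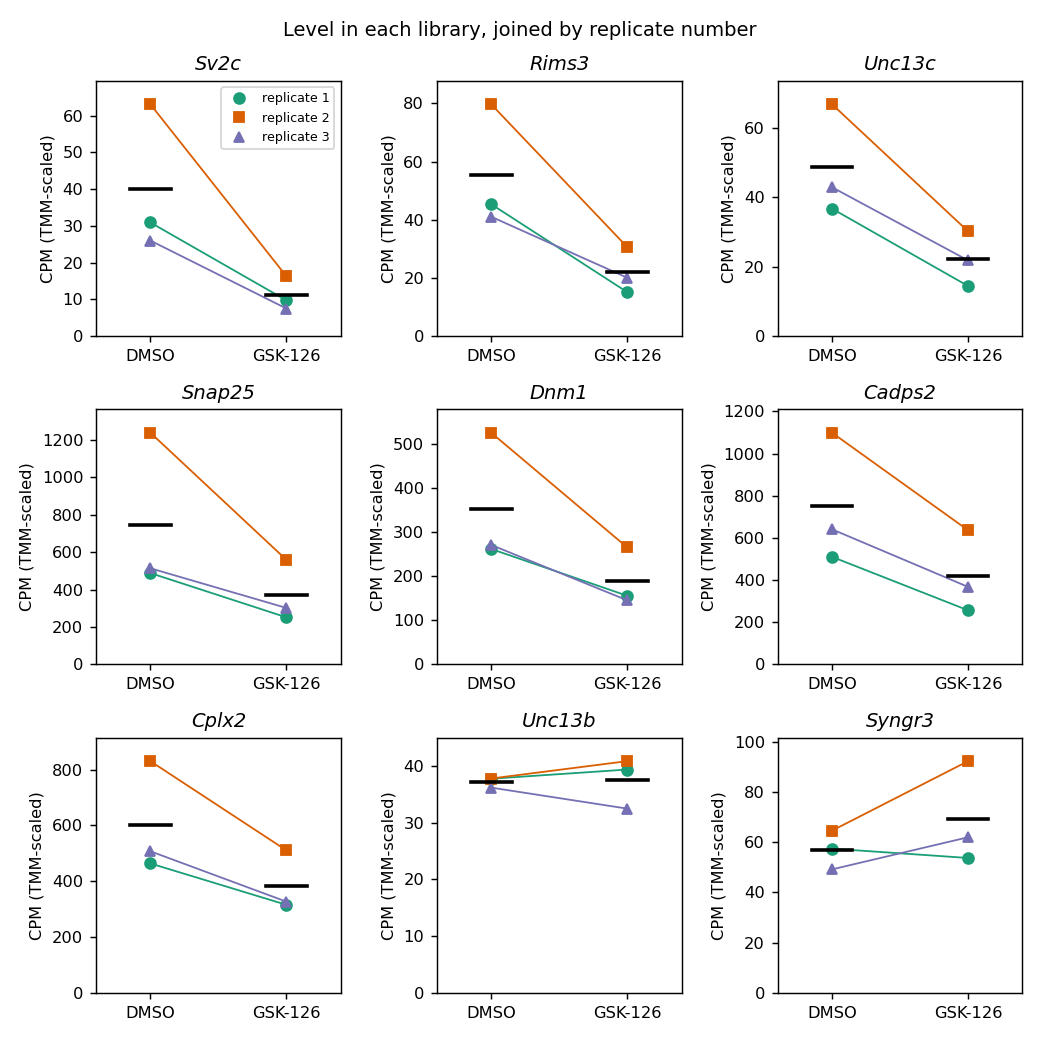
CPM scaled by TMM (vertical axes, from 0) of 9 presynaptic genes in each library, with lines joining libraries of the same replicate number and black bars at the group means. Replicate 2 is the highest library in each group for the 7 genes that fell, and each of their lines goes down from DMSO to GSK-126, while Unc13b stays between 32.5 and 40.8 CPM.

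Snap25 had the largest fall of the SNARE genes. Snap25 (ENSMUSG00000027273.13, chromosome 2, 136713453 to 136782428) encodes the plasma membrane SNARE that contributes a pair of helices to the complex. Its levels were 488, 1238 and 514 CPM with DMSO against 252, 559 and 302 CPM with GSK-126. The groups overlapped only because GSK-126 replicate 2 exceeded DMSO replicates 1 and 3, and each pair was lower, with a log2 fold change of -0.96 (standard error 0.08, edgeR adjusted p = 1.53e-07). Vamp2, the main vesicular SNARE, fell by less, with -0.26 (standard error 0.07, edgeR adjusted p = 0.0311), and lost the call without replicate 1 or replicate 3 and under upper-quartile or total-count scaling. Vamp1, its rarer relative, had 15.8, 28.9 and 18.2 CPM with DMSO against 15.1, 15.6 and 17.2 CPM with GSK-126, a log2 fold change of -0.35 (standard error 0.17, edgeR adjusted p = 0.233). Stx1a, the syntaxin of this list, had 35.2, 33.4 and 30.9 CPM with DMSO against 33.5, 47.8 and 38.6 CPM with GSK-126, a log2 fold change of 0.26 (standard error 0.12, edgeR adjusted p = 0.236) with the opposite sign.

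Complexins bind the assembled SNARE complex and hold it until calcium arrives. Cplx2 (ENSMUSG00000025867.8, chromosome 13, 54371349 to 54383917) had 464, 831 and 508 CPM with DMSO against 316, 511 and 327 CPM with GSK-126, lower in each pair, and its log2 fold change was -0.63 (standard error 0.07, edgeR adjusted p = 5.43e-06). Cplx1 fell less, by 0.28 on the log2 scale (standard error 0.07, edgeR adjusted p = 0.0225). Cplx3, found mainly at ribbon synapses, had 0 to 0.534 CPM and was too low to test. After fusion the complex is taken apart by the ATPase NSF with its SNAP adaptors. Nsf fell by 0.46 (standard error 0.07, edgeR adjusted p = 0.000378) and Napb, which encodes the neuronal beta-SNAP, by 0.56 (standard error 0.08, edgeR adjusted p = 6.86e-05).

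Of the 6 calcium sensors and their relatives, 4 fell, and each of these 4 lost the call without at least 1 pair. Syt1, the fast sensor of most forebrain synapses, had 508, 813 and 523 CPM with DMSO against 356, 675 and 425 CPM with GSK-126 and a log2 fold change of -0.36 (standard error 0.07, edgeR adjusted p = 0.00269). Syt2, the fast sensor of many hindbrain synapses, had 85.1, 98.8 and 97.0 CPM with DMSO against 69.0, 81.9 and 67.7 CPM with GSK-126, with no overlap between the groups and a log2 fold change of -0.36 (standard error 0.09, edgeR adjusted p = 0.011). Syt7, a high affinity sensor of asynchronous release, fell by 0.39 (standard error 0.09, edgeR adjusted p = 0.00556). Syt11, which does not bind calcium, fell by 0.24 (standard error 0.07, edgeR adjusted p = 0.0341), the smallest change that passed. Syt4, which resides largely on secretory granules, did not pass, with -0.09 (standard error 0.07, edgeR adjusted p = 0.56). Doc2b, a soluble sensor of spontaneous release, had 5.91 to 12.5 CPM and did not pass, with -0.36 (adjusted p = 0.358) in edgeR's test.

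Genes of dense core vesicle priming and of the Rab3 cycle showed the same direction. Cadps2 (ENSMUSG00000017978.18, chromosome 6, 23262773 to 23839421) encodes CAPS2, a priming factor for dense core vesicles that granule neurons use to release neurotrophins. Its levels were 510.3, 1099 and 641 CPM with DMSO against 257, 637 and 368 CPM with GSK-126. Each pair was lower, and the log2 fold change was -0.86 (standard error 0.07, edgeR adjusted p = 1.53e-07). Its paralogue Cadps (CAPS1) fell by 0.29 (standard error 0.07, edgeR adjusted p = 0.0149). Rab3 proteins bring vesicles to the release site. Rab3c fell by 0.44 (standard error 0.07, edgeR adjusted p = 0.000518) and the Rab3 effector Rph3a, rabphilin, by 0.55 (standard error 0.07, edgeR adjusted p = 5.46e-05), while Rab3a had a log2 fold change of -0.30 (standard error 0.11, edgeR adjusted p = 0.113).

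Endocytosis returns the membrane. Dnm1 (ENSMUSG00000026825.17, chromosome 2, 32308471 to 32353338) encodes dynamin 1, the neuronal GTPase that cuts new vesicles from the plasma membrane. The level of Dnm1 was 261, 525 and 271 CPM with DMSO against 155, 265 and 145 CPM with GSK-126. DMSO replicates 1 and 3 were close to GSK-126 replicate 2, each pair was lower, and the log2 fold change was -0.88 (standard error 0.07, edgeR adjusted p = 2.02e-07). Amph, whose product amphiphysin brings dynamin to the neck, had 201, 245 and 201 CPM with DMSO against 155, 195 and 149 CPM with GSK-126 with no overlap, and a log2 fold change of -0.38 (standard error 0.07, edgeR adjusted p = 0.00216). Sh3gl2 (endophilin A1), which bends the neck, fell by 0.43 (standard error 0.07, edgeR adjusted p = 0.000421). Synj1 (synaptojanin 1), the lipid phosphatase that sheds the clathrin coat, was lower in all 3 pairs without passing the threshold, with -0.22 (standard error 0.07, edgeR adjusted p = 0.0723).

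Within several families the fitted changes were unequal, and the makeup of each family was read library by library. Shares were taken within each library from CPM per kb of exon. Rims3 was 48.3%, 53.1% and 43.2% of the RIM counts per kb listed with DMSO and 30.0%, 38.3% and 34.9% with GSK-126, the remainder being Rims2. With Rims1 listed at 0 for reasons the files do not show, these values compare Rims3 with Rims2 and may not be shares of all RIM transcripts. Unc13c was 18.6%, 21.4% and 19.6% of the Munc13 transcripts with DMSO and 8.89%, 11.4% and 12.1% with GSK-126. Sv2c was 3.71%, 4.95% and 3.05% of the SV2 transcripts with DMSO and 1.59%, 1.62% and 1.13% with GSK-126. For each of these 3 shares the groups did not overlap. Cplx2 likewise went from 41.5%, 48.1% and 42.4% of the complexins to 36.9%, 38.3% and 39.1%. For each of these shares the exact permutation test (two-sided, 3 against 3) gave p = 0.1, the smallest this design allows, and 0.257 after Benjamini-Hochberg adjustment over 18 shares, so no share could pass 0.05. The split between Syt1 and Syt2 differed by less than the spread between replicates, with Syt1 at 85.3% ± 2.66 (SD, n = 3) with DMSO and 85.3% ± 2.88 (SD, n = 3) with GSK-126, as did that between Vamp1 and Vamp2.

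**Figure D4:**
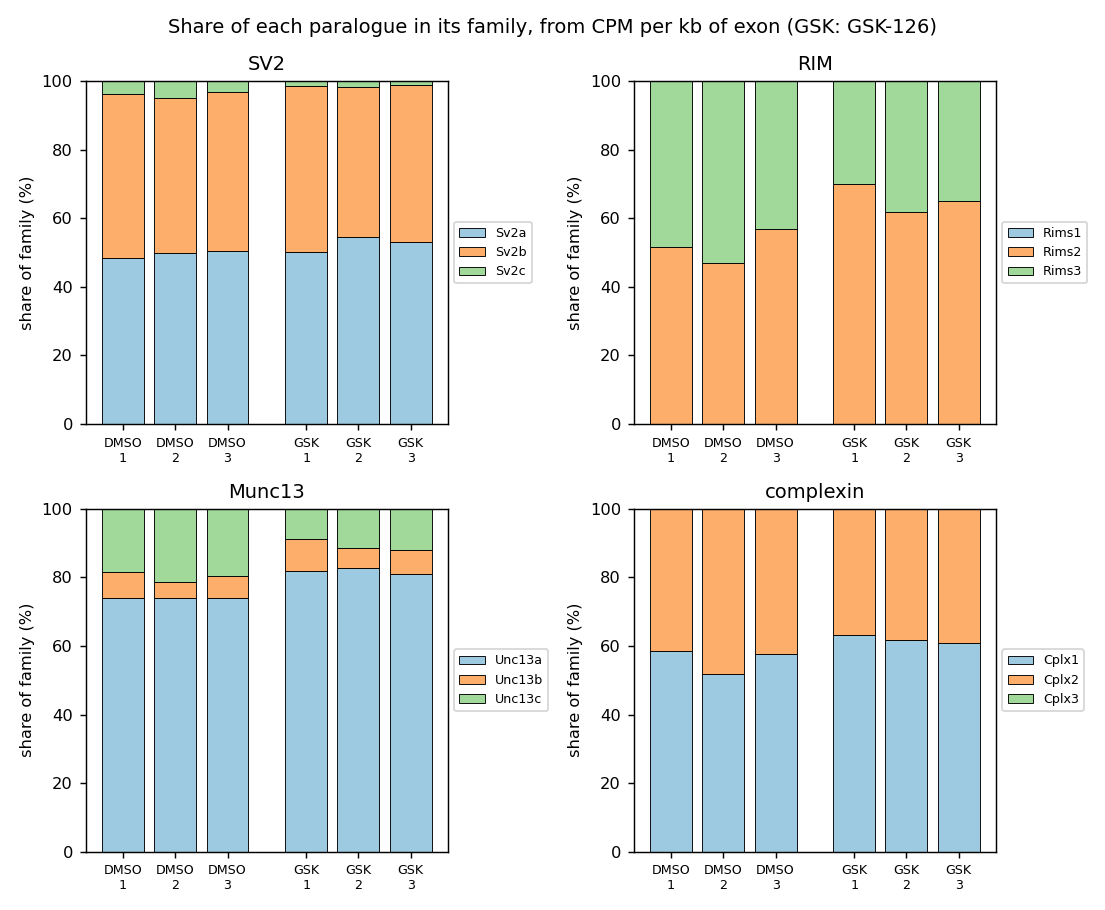
Share of each gene in the summed CPM per kb of exon of its family (vertical axis, %) in the 6 libraries, for the SV2, RIM, Munc13 and complexin families. Rims3 makes up 43.2% to 53.1% of the RIM bars with DMSO and 30.0% to 38.3% with GSK-126, and the Unc13c and Sv2c segments are smaller in every GSK-126 bar.

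Per kb of exon, the most abundant presynaptic transcripts with DMSO were Cplx1 at 152 CPM per kb, Vamp2 at 127, Cplx2 at 122, Syt4 at 121, Snap25 at 109.9 and Syp at 107 CPM per kb, as means of 3 libraries. With GSK-126 Snap25 stood at 54.6 and Cplx2 at 78.0 CPM per kb, below Syt4 at 115 and Syp at 96.2 CPM per kb. Sv2c, Unc13c and Rims3 were at the other end, between 4.12 and 6.94 CPM per kb with DMSO and between 1.15 and 2.75 CPM per kb with GSK-126. Falls over 1.5-fold were thus seen at both ends of the range of levels, but the 3 falls over 2-fold were all at the low end. At the high end, Snap25 was 1.94-fold and Cplx2 1.55-fold lower. Cplx1, Vamp2, Syt4 and Syp changed by -0.28, -0.26, -0.09 and -0.17 on the log2 scale.

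A further 76 genes of release and recycling, listed by hand outside the 42, were read from the same fit. Of the 72 tested, 13 fell and 59 did not pass edgeR's test, and their median log2 fold change was -0.14. Of the 6 with the smallest p, 5 are described, namely Lin7a, an adaptor of the presynaptic scaffold, at -0.71, the liprin Ppfia4 at -0.76, the ELKS gene Erc1 at -0.57, dynamin 3 (Dnm3) at -0.47 and Stxbp5l (tomosyn 2) at -0.55, with edgeR adjusted p between 2.71e-05 and 0.00195. By role, 5 of 14 active zone genes, 4 of 15 SNARE genes and SNARE regulators, 1 of 8 calcium sensors and 3 of 23 endocytosis genes fell. Among all tested genes 5.09% were called lower, and differences between these roles were not tested. Of 12 Rab and vesicle membrane genes, 0 were called by edgeR or by DESeq2 with the block, with 6 at an unadjusted p under 0.05 in edgeR's test.

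In bulk RNA, fewer neurons and less RNA per neuron cannot be told apart. The summed markers of neurons moved in the same direction as the summed presynaptic genes, but single markers were mixed. Of the 12 pan-neuronal markers 8 had a log2 fold change below 0, and of the 8 granule neuron markers 7. The summed CPM of 12 pan-neuronal markers with GSK-126 was 0.882, 0.888 and 0.858 of the DMSO library of the same number, with 5 genes lower and 2 higher, over summed levels of 3158 to 4584 CPM with DMSO against 2786 to 4070 CPM with GSK-126. That of 8 granule neuron markers was 0.807, 0.805 and 0.776, with 4 lower and 1 higher, over 3626 to 5644 CPM and 2927 to 4545 CPM. Named after their values were seen, Rbfox3 (NeuN) fell by 0.59 (standard error 0.07, edgeR adjusted p = 2.69e-05) and Tubb3 rose by 0.40 (standard error 0.11, edgeR adjusted p = 0.0234). The 6 markers of GABAergic and Purkinje cells were at 0.840, 0.818 and 0.661, with 3 lower. Their summed levels were 195 to 227 CPM with DMSO against 150.0 to 183 CPM with GSK-126. Among them, Pvalb (log2 fold change 0.51) and Calb1 (0.45) went the other way without passing the threshold. No marker of the other cell types was called lower. The summed astroglial markers were at 1.05, 0.948 and 0.991 of DMSO and those of the oligodendrocyte lineage at 1.03, 1.19 and 1.15. For microglia the ratios were 1.16, 1.37 and 1.23, for vascular cells and fibroblasts 1.23, 1.04 and 1.06, and for granule neuron precursors 1.31, 1.07 and 1.14, with 1 gene of each of these 5 lists called higher and none lower. The summed levels of these lists ran from 149 CPM for microglia to 7678 CPM for vascular cells and fibroblasts. The precursor gene called higher was Ccnd2 (0.41, standard error 0.08, edgeR adjusted p = 0.00222), which had the highest CPM of that list in every library. Of the other tested precursor markers, Mki67 changed by 0.09, Top2a by 0.0063 and Ccnb1 by -0.17 on the log2 scale, none past the threshold. The part of cell composition in the presynaptic falls was not tested.

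**Figure D5:**
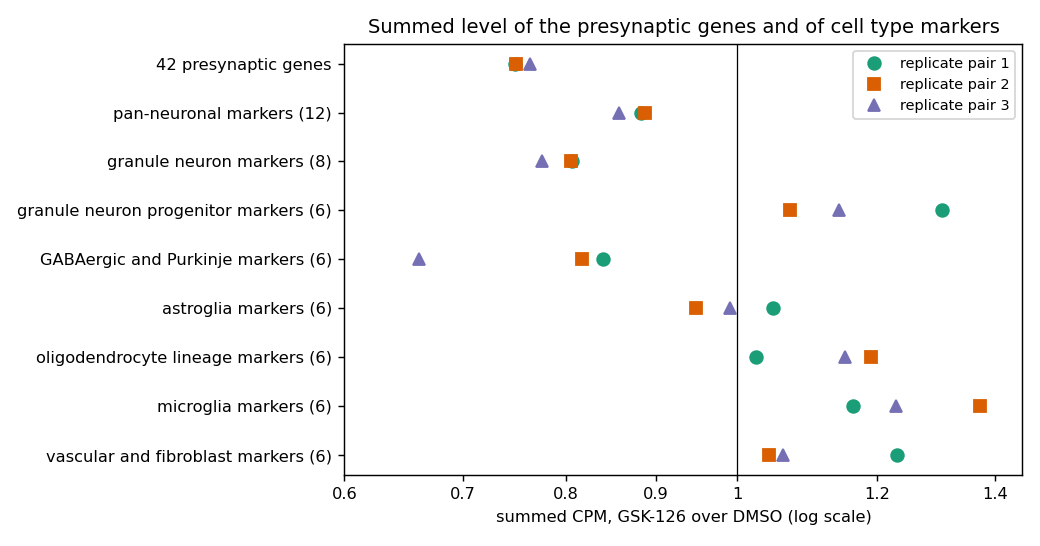
Ratio of summed CPM, GSK-126 over DMSO (horizontal axis, log scale), for the 42 presynaptic genes and for 8 lists of cell type markers, with 1 symbol per replicate pair and the number of genes in parentheses. The presynaptic genes lie at 0.749 to 0.763 in all pairs, the pan-neuronal markers at 0.858 to 0.888 and the astroglial markers at 0.948 to 1.05.

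The study's lists of genes that change H3K27me3 were set beside the calls. Of all 40 tested presynaptic genes, 27 were called lower, so a high share called lower is common to the whole set. Whether presynaptic genes on a list differ from the other presynaptic genes was not tested. Of its genes that lose the mark fast during cerebellar maturation in vivo, 4 were presynaptic (Rph3a, Snap25, Sv2c and Syt2), all called lower here, against 26.1% of the 522 tested genes of that list. Of those that lose it slowly, 5 were presynaptic, with Dnm1, Sv2c, Syt2 and Syt7 called lower and Syngr3 not, against 14.8% of 573 tested genes. Sv2c and Syt2 stand on both lists. Rims2 and Sv2b were on the list that gains the mark from DIV1 to DIV7, and both fell, against 4.46% of 448 tested genes, while the list that gains it from P7 to P60 held 0 of the 42. The list that loses the mark from DIV1 to DIV7, held here only in part, had 8 presynaptic genes, of which 7 were tested. Of these, Dnm1, Rph3a, Syt2 and Syt7 fell and Doc2b, Syngr3 and Syt4 did not pass, against 14.7% of 991 tested genes called lower. Syt2 and Syt7 were on the list of genes that gain the mark in the Kdm6b knockout, and both fell, against 37.6% of 141 tested genes. Both calls were lost without at least 1 pair. Rims3 and Unc13c are on none of these lists as held here.

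Overlapping genes may touch the counts of 13 presynaptic genes, whose exons share between 9 and 1733 bp with a gene on the opposite strand. Bsn, which is not among these 13, shares 57 bp of exon with Gm47303 on its own strand. Of these 13, 5 fell (Syt7, Pclo, Syn1, Syn2 and Sv2b), Syn3 rose and 7 did not pass. Of the 27 tested genes with no such overlap, 22 fell and 5 did not pass. The 7 genes that fell over 1.5-fold (Sv2c, Rims3, Unc13c, Snap25, Dnm1, Cadps2 and Cplx2) are all among these 22.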

How the data were processed

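RNA was measured by poly(A) RNA-seq in 6 libraries of cultured CGNs. The authors trimmed reads with Trimmomatic 0.38, aligned them to mm10 (GRCm38.p4) with STAR 2.7.2b and counted reads on exons with HTSeq, and they deposited raw counts per gene of each library, with no normalization. Groups came from the labels. Lines that name no gene held 58.7% to 60.7% of the listed reads and were left out. All 55341 symbols matched GENCODE M21, which gave coordinates, exon lengths and overlaps.

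Counts were fitted in edgeR 4.0.16 (R 4.3.3) with TMM factors, filterByExpr, the replicate number as a block and the quasi-likelihood test. The labels number replicates 1 to 3 in both groups, and the numbers were checked in the counts. Deviations from the group means correlated at 0.613, 0.691 and 0.539 between libraries of the same number and at 0.0202 or less between others, so libraries of the same number were taken as pairs. Deviations cancel out within a group, so high values within a number force lower ones between numbers, and the latter are not separate support. What libraries of the same number share was not tested. The biological coefficient of variation was 9.74% with the block and 24.0% without it. No 2 libraries were copies (chi-square per degree of freedom 8.40 or more). The fold changes include counting error and the spread between replicates.

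The fit was tested on simulated data. It recovered 45 (67.2%) of 67 genes changed 1.5-fold, 56 (83.6%) of 67 changed 2-fold and 66 (100%) of 66 changed 3-fold. Beside these true calls there were 16 false calls, among 16472 genes. The simulated counts were drawn with replicate effects and with the dispersions of the fit with the block, so they do not test the pairing. Changes under 1.5-fold, the size of most falls called here, were not simulated. Alternatives were the fit without the block, DESeq2 1.42.0 (Wald test), upper-quartile and total-count scaling, no filter on low counts, a minimum of 10 counts in each library, each pair left out and an adjusted p under 0.01. Shares within families were tested by exact permutation in scipy 1.17.1. The genes, lists and rules for naming genes (all 42, and the 6 other release genes with the smallest p) were chosen with earlier results of these data known. The result of 1 of these 6 is not given in the text. DESeq2 without the block and the count without opposite-strand overlap were added after the data were seen.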

Additional observations from a re-analysis of the deposited data

How the results depend on the processing

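The replicate block decided most calls. Without the replicate block, edgeR called 0 genes lower and 0 higher over all genes, 0 and 0 of the presynaptic genes and 0 of the other release genes, and DESeq2 without the block called 1 lower and 20 higher over all genes and 1 lower and 0 higher of the presynaptic genes. The cause of the lost calls was not tested beyond the coefficient of variation, which is larger without the block. Over all genes, 851 were lower and 561 higher with the block, 369 higher by DESeq2 with the block, 474 and 242 at an adjusted p under 0.01, and 496 to 719 lower and 337 to 558 higher with 1 pair left out, least without replicate 2. Of the presynaptic genes, 21 to 26 were lower and 1 to 2 higher with 1 pair left out (22 without replicate 1, 26 without replicate 2 and 21 without replicate 3), the second rise being Syngr3 without replicate 1 (0.44, edgeR adjusted p = 0.0204), and 0 were higher among genes with no opposite-strand overlap. Of the other release genes, 8 to 12 were lower and 0 to 1 higher with 1 pair left out, and 1, Vamp3, was higher without replicate 2 and under both other scalings. The median of the presynaptic genes was -0.33 under upper-quartile and total-count scaling and -0.39 to -0.37 with 1 pair left out, while the median of all genes moved from -0.0056 to 0.029 and 0.028. Syt11 and Vamp2 lost their calls under both scalings.

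Log2 fold changes near 0 turned sign with 1 pair left out. That of Syt4 ran from -0.15 to 0.027 (positive without replicate 1), that of Unc13b from -0.041 to 0.088 (negative without replicate 1 or 2, at -0.00283 and -0.041) and that of Erc2 from -0.082 to 0.20 (negative without replicate 2). Differences in share that turned sign with 1 pair left out ran, in percentage points, from -0.990 to 1.03 for Syt1 and from -1.03 to 0.990 for Syt2 (turned without replicate 3), from -0.291 to 0.263 for Vamp1 and from -0.263 to 0.291 for Vamp2 (without replicate 2), from -0.0240 to 0.0404 for Cplx3 and from -1.13 to 1.15 for Syn1 (without replicate 3). From CPM not divided by exon length, that of Sv2b was 0.510. With the block, omitting the filter, a minimum of 10 counts in each library and DESeq2 each kept the call and sign of all 40 tested genes. With 3 cultures a group, genes not called are not shown to be unchanged.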
